A study of Drosophila melanogaster with 34 samples.

Results

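Wing imaginal discs mutant for scrib, dissected as tumors 10 days after egg laying (AEL), were compared with control discs dissected at 5 days AEL. The 2 groups hold 8 of the 34 bulk RNA-seq libraries of the study, 4 tumors and 4 control samples, and were picked by genotype and age alone. Tumor larvae had the genotype scrib-/- FRT82B and came from the stock scrib1 FRT82B/TM6B, and control larvae carried FRT82B, the recombination site that both groups share. Eggs of both had been laid within 3 h and the larvae raised uncrowded in food vials. Other groups used beside them were scrib tumors at 5, 8 and 14 days (4 libraries each) and control discs at 4 days (3 libraries).

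The mutation was present in the whole larva, not in clones, and 1 allele stands for the loss of scrib. Control larvae pupariate at about 5 days, whereas larvae with scrib tumors go on as larvae, so the tumors were older by 5 days and age and genotype cannot be told apart in this contrast. The labels do not say how many discs went into a library or whether the replicates came from separate vials, so the p-values measure the spread between these samples, which may be technical.

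The wing disc is a folded epithelial sac in the larva that grows by cell division and then forms the wing and the dorsal thorax of the adult fly. Scribble is a scaffold protein of the basolateral cortex that works with Discs large and Lethal giant larvae, and its loss disturbs apical-basal polarity and lets the disc overgrow into a multilayered mass. Such mutant discs are known for activity of Jun N-terminal kinase (JNK), a stress kinase that acts through AP-1 transcription factors, and for secreted proteins that delay pupariation. At the end of larval life a pulse of the steroid ecdysone starts metamorphosis and switches on a cascade of transcription factors and secreted proteins in the control disc.

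Expression was given as CPM, the read count of a gene scaled to a common library size, and was tested with limma on log2(CPM + 1) in 9637 genes. A log2 fold change is that of tumors over control discs on this scale, where the added 1 shrinks the change of rare transcripts. Between 19602820 and 21992511 reads fell on genes in a library, and each library detected 10717 to 11179 genes. The depth cannot separate values under 3 reads, or 0.129 to 0.152 CPM, from absence. Correlations between replicates were 0.986 to 0.996 in the tumors and 0.992 to 0.997 in the control discs across genes, which are not independent replicates.

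Some libraries stood apart from the others of their group before any comparison. Tumor replicate 2 had 55.7 CPM of roX1, a noncoding RNA of dosage compensation in males, against 328 to 733 CPM in the other tumors and 261 to 338 CPM in the control discs. Tumor replicate 1 held a summed 612 CPM of digestive enzyme transcripts, against 12.4 to 25.4 CPM in the other tumors. Control replicate 2 was the lowest control disc sample for ecdysone-inducible genes, as described with them. Of 237 named genes with a position, 24 share over 10% of their exonic bases with the exons of another gene, and 7 over 50%, which makes their counts uncertain. Among those with values here are Ude, grnd, zfh2, Timp, Treh, RpL3, twi, Syx1A and Diap1, and the others with values are marked where they are described. No library was left out, and results that rest on 1 library are given with and without it.

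The scrib transcript itself was higher in the tumors. The gene (chromosome 3R, 26536350 to 26604051, plus strand, BDGP6) had 706, 748, 714 and 711 CPM in the day 10 tumors, against 441, 469.98, 454 and 468 CPM in the day 5 control discs. Every tumor value was above every control value (log2 fold change 0.65, SE 0.06, limma adjusted p = 3.8e-11). A mutant allele need not lower its transcript, so this level does not test the labels. Both groups expressed the disc markers vg and ap, selector genes of the wing and of its dorsal side. The gene vg was at 229.95 to 302 CPM in the tumors, against 406 to 458 CPM in the control discs, and ap is given with the patterning factors.

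At an adjusted p below 0.05, 6291 of the 9637 tested genes differed, which is 65.3%. Of these, 3192 genes were higher in the tumors (33.1%) and 3099 genes were lower (32.2%). A difference of at least 2-fold was present in 1213 genes (12.6%), with 783 genes higher (8.12%) and 430 genes lower (4.46%). The median log2 fold change over all tested genes was 0.02 and the median of its absolute value was 0.32, so most called genes differed by less than 2-fold. In these bulk samples fewer cells of a type and less RNA per cell cannot be told apart. With no overlap between the 4 tumors and the 4 control samples, 3059 genes were higher (31.7%) and 2891 genes were lower (30.0%). Since so many genes passed the test, a share of called members in a gene list is read against these percentages.

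The 12 most raised genes, chosen among those that averaged 10 CPM or more in the tumors and whose groups did not overlap, included a relaxin-like hormone, enzymes and heat shock proteins, and several genes without a name. CG12911, which has no assigned role here, had 753, 752, 422 and 910.2 CPM in the day 10 tumors, against 1.09, 1.55, 1.79 and 1.82 CPM in the day 5 control discs. The control samples held a trace of it and each tumor held a large amount (log2 fold change 8.07, SE 0.16, limma adjusted p = 9.7e-27). CG42326 had 405, 407, 306 and 601 CPM in the day 10 tumors, against 1.96, 1.42, 3.30 and 2.88 CPM in the day 5 control discs, and its groups were also far apart (log2 fold change 6.98, SE 0.16, limma adjusted p = 5.6e-25). Tsp42El, a tetraspanin of the cell membrane, was at 141 to 171 CPM in the tumors, against 1.93 to 3.40 CPM in the control discs, with a log2 fold change of 5.48.

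Ilp8 encodes the relaxin-like hormone through which damaged or tumorous discs delay metamorphosis. The gene (chromosome 3L, 17029812 to 17032080, minus strand) had 88.8, 74.7, 149.8 and 57.2 CPM in the day 10 tumors, against 0.182, 0.302, 0.330 and 0.431 CPM in the day 5 control discs. Tumor replicate 3 was the highest and replicate 4 the lowest, and all control samples lay close to the level that 3 reads give. The log2 fold change was 6.07 (SE 0.26, limma adjusted p = 1.5e-18) on the log2(CPM + 1) scale, and 8.16 by edgeR on reads. Cyp6a17, a cytochrome P450, was at 102 to 122 CPM in the tumors, against 0.137 to 0.431 CPM in the control discs. CG40485 was at 64.6 to 94.3 CPM in the tumors, against 0.0456 to 0.302 CPM in the control discs. In both the control values again lay near the limit of detection.

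Other strongly raised genes varied between the tumors. ImpL3, the lactate dehydrogenase gene of the fly (chromosome 3L, 6259105 to 6262694, minus strand), had 1180.2, 502, 1357 and 198 CPM in the day 10 tumors, against 17.5, 12.3, 17.8 and 18.6 CPM in the day 5 control discs. Tumor replicates 1 and 3 were high and replicates 2 and 4 lower, and each was far above all control samples (log2 fold change 5.19, SE 0.50, limma adjusted p = 1.9e-10). Cpr64Ac, a cuticle protein, had 172, 67.6, 166 and 21.1 CPM in the day 10 tumors, against 0.228, 0.431, 0.377 and 0.240 CPM in the day 5 control discs. Its log2 fold change of 5.95 became 6.58 without tumor replicate 4, the lowest tumor. Hsp68, an inducible chaperone, had 279.96, 781, 508 and 412 CPM in the day 10 tumors, against 14.68, 23.8, 4.01 and 10.7 CPM in the day 5 control discs, with tumor replicate 2 the highest (log2 fold change 5.24, SE 0.52, limma adjusted p = 4.2e-10). Hsp70Bb was at 56.3 to 165 CPM in the tumors, against 0.377 to 3.67 CPM in the control discs, but it has near-identical copies in the genome and its count is uncertain. Ude, an enzyme that degrades DNA containing uracil, was at 137 to 204 CPM in the tumors, against 2.33 to 5.91 CPM in the control discs (log2 fold change 5.04). CG42492 was at 31.0 to 47.6 CPM in the tumors, against 0.0479 to 0.377 CPM in the control discs.

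**Figure D1:**
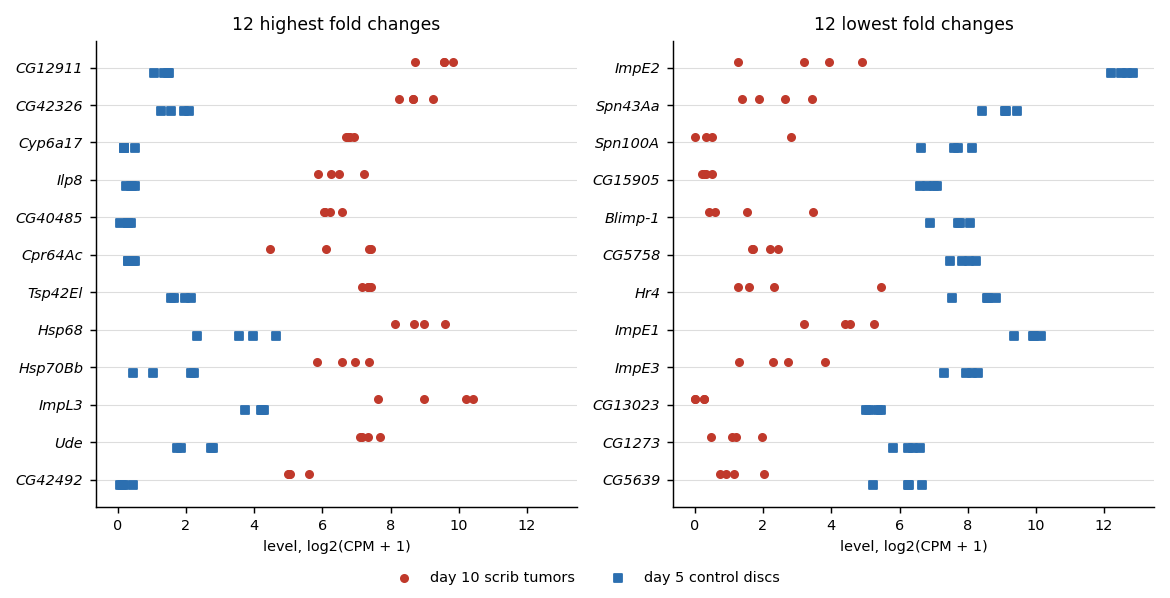
Expression of the 12 most raised and the 12 most reduced genes, as log2(CPM + 1) on the x axis, with 1 point per library, day 10 tumors in one color and day 5 control discs in the other. The genes were chosen among those whose groups do not overlap, so the separation of the points is set by the choice. ImpE2 has the largest log2 fold change, with 1.40 to 28.8 CPM in the tumors and 4689 to 7299 CPM in the control discs.

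The 12 most reduced genes, chosen by the same limits, included 3 that are named for their induction by ecdysone in discs. ImpE2 (chromosome 3L, 3510974 to 3512681, minus strand), an abundant transcript of the late disc, had 14.3, 28.8, 8.22 and 1.40 CPM in the day 10 tumors, against 6462, 4689, 7299 and 5776 CPM in the day 5 control discs. It was abundant in each control sample and low in each tumor (log2 fold change -9.22, SE 0.67, limma adjusted p = 4.1e-13). The log2 fold change was -8.53 without tumor replicate 4, which had the lowest value. ImpE1 had 19.95, 37.5, 22.6 and 8.22 CPM in the day 10 tumors, against 982, 652, 1138 and 968 CPM in the day 5 control discs. ImpE3 had 5.57, 13.0, 3.86 and 1.45 CPM in the day 10 tumors, against 281, 158, 311 and 245 CPM in the day 5 control discs. Both fell with no overlap between the groups, and in both control replicate 2 was the lowest control sample. Their log2 fold changes were -5.49 (SE 0.27) and -5.40 (SE 0.34).

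Transcription factors of the ecdysone cascade fell with them. Blimp-1, a zinc finger repressor whose persistence times the prepupal stage, had 1.89, 10.1, 0.507 and 0.338 CPM in the day 10 tumors, against 216, 118, 268 and 207 CPM in the day 5 control discs. Hr4, a nuclear receptor, had 3.98, 43.3, 1.98 and 1.40 CPM in the day 10 tumors, against 378, 184, 455 and 389.6 CPM in the day 5 control discs. In both, tumor replicate 2 was the highest tumor by a wide margin, yet it stayed below the lowest control sample. The log2 fold change of Blimp-1 was -6.10 with all libraries and -6.76 without tumor replicate 2, and that of Hr4 was -5.73 and -6.67 in the same order. The serpin gene Spn43Aa, which encodes an inhibitor of proteases, was at 1.60 to 9.82 CPM in the tumors, against 343 to 693 CPM in the control discs. Another serpin gene, Spn100A, was at 0 to 6.07 CPM in the tumors, against 98.5 to 279 CPM in the control discs. It had a log2 fold change of -6.61, which became -7.25 without tumor replicate 2. The other genes of this set, CG15905, CG5758, CG13023, CG1273 and CG5639, have no assigned role here and had log2 fold changes of -6.56, -5.90, -5.11, -5.08 and -4.89.

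The libraries kept an order across these 12 lowest genes. Control replicate 2 was the lowest control sample in 12 of the 12 genes and control replicate 3 the highest in 12. Among the tumors, replicate 2 was the highest in 11 and replicate 4 the lowest in 11. The 12 highest genes showed no order as complete, with no tumor the highest in more than 5 of them. Among the control samples, replicate 2 was the highest in 6 of these genes and replicate 1 the lowest in 6. Tumor replicate 2 was also the library with the lowest roX1, and the part of that in the order across the lowest genes was not tested.

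Over the whole list of ecdysone response and temporal identity genes, 27 of 29 were tested, with 14 lower in the tumors, 8 higher and 5 not called. Over all genes 32.2% were lower and 33.1% higher. The median log2 fold change of the list was -0.30, against 0.02 over all genes. The list read otherwise against the day 4 control discs, with 14 of the 27 higher in the day 10 tumors, 2 lower and 11 not called (median 0.39). The receptor gene EcR was higher in the tumors, with 318, 363, 318 and 332 CPM in the day 10 tumors, against 126, 146, 127 and 142 CPM in the day 5 control discs. No tumor overlapped a control sample (log2 fold change 1.30, SE 0.08, limma adjusted p = 2.2e-15). The transcript of br, which encodes the Broad transcription factors of metamorphosis, was abundant in both groups, with 1003, 1109, 1000.3 and 738 CPM in the day 10 tumors, against 2239, 2116, 2361 and 2162 CPM in the day 5 control discs. It fell in every tumor (log2 fold change -1.22, SE 0.12, limma adjusted p = 1.6e-10). The orphan nuclear receptor gene ftz-f1, which normally acts in prepupae, was at 71.9 to 82.7 CPM in the tumors, against 5.42 to 12.6 CPM in the control discs (log2 fold change 3.06, SE 0.14, limma adjusted p = 3.8e-18). A share of 29.4% of its exonic bases overlaps another gene on the same strand, and by default reads there are not assigned, so its count is uncertain.

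The temporal identity gene chinmo differed as strongly. The gene chinmo, which encodes a BTB zinc finger factor of early larval stages (chromosome 2L, 1651258 to 1704682, plus strand), had 318, 306, 262 and 360.4 CPM in the day 10 tumors, against 6.89, 11.6, 6.27 and 16.1 CPM in the day 5 control discs. No tumor came near the control samples (log2 fold change 4.88, SE 0.15, limma adjusted p = 5.9e-22). Eip93F, a factor of the adult program, was near the limit of detection in both groups, at 0.304 to 0.796 CPM in the tumors, against 0.173 to 0.613 CPM in the control discs, and was not called (limma adjusted p = 0.78). ImpL1, another ecdysone-inducible gene, was at 0.0967 to 0.658 CPM in the tumors, against 0.623 to 2.08 CPM in the control discs, and its groups overlapped although it passed the test (log2 fold change -0.69). Edg78E, a cuticle gene, was at or below 0.519 CPM in all 8 libraries. Further members of the list, named after their values were seen, were Eip78C and Eip74EF. Eip78C, a nuclear receptor gene, was at 0.193 to 11.7 CPM in the tumors, against 73.7 to 108 CPM in the control discs. Eip74EF, an Ets factor gene, was at 184 to 217 CPM in the tumors, against 106 to 132 CPM in the control discs. They had log2 fold changes of -4.88 and 0.69, so the list did not move in 1 direction.

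Genes of the JNK pathway and the known targets of JNK and AP-1 were considered apart. In the fly the TNF homologue Eiger binds Grindelwald or Wengen and starts a kinase cascade that ends at Jun and Fos, encoded by Jra and kay. Of 14 pathway genes, 7 were higher, 3 were lower and 4 were not called, beside 33.1% higher and 32.2% lower over all genes. Their median log2 fold change was 0.18. The ligand egr was low and lower in the tumors, with 5.37, 7.19, 8.52 and 6.19 CPM in the day 10 tumors, against 10.8, 10.5, 12.3 and 9.97 CPM in the day 5 control discs. Its groups did not overlap (log2 fold change -0.62, SE 0.13, limma adjusted p = 8.5e-05). The receptor gene wgn was at 24.0 to 28.0 CPM in the tumors, against 66.6 to 70.6 CPM in the control discs (log2 fold change -1.37, SE 0.09, limma adjusted p = 9.6e-15). The other receptor gene, grnd, was at 93.5 to 100.7 CPM in the tumors, against 82.5 to 85.3 CPM in the control discs (log2 fold change 0.20).

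Both subunits of AP-1 were raised. The gene kay had 648, 740.1, 709 and 504 CPM in the day 10 tumors, against 192, 188, 212 and 192 CPM in the day 5 control discs. Tumor replicate 4 was the lowest tumor and still far above the control samples (log2 fold change 1.71, SE 0.10, limma adjusted p = 2.2e-15). Jra was at 125 to 146 CPM in the tumors, against 55.4 to 65.6 CPM in the control discs (log2 fold change 1.12, SE 0.06, limma adjusted p = 1.5e-16).

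All 15 listed targets were higher in the tumors, 12 of them by at least 2-fold and 14 with no overlap, against 8.12% and 31.7% of all genes. Their median log2 fold change was 2.12, against 0.02 over all genes. These genes were listed because mutants of this kind are known to raise them, and the list was written with earlier results of these data known. The phosphatase gene puc, which limits JNK by feedback (chromosome 3R, 8105332 to 8122294, plus strand), had 148, 151, 143 and 138 CPM in the day 10 tumors, against 39.3, 36.1, 43.2 and 44.7 CPM in the day 5 control discs. The tumors were close to each other and all above the control samples (log2 fold change 1.81, SE 0.08, limma adjusted p = 4.3e-18). Mmp1, a matrix metalloproteinase that cuts the basement membrane, had 408, 498, 442 and 387 CPM in the day 10 tumors, against 113, 99.7, 147 and 122 CPM in the day 5 control discs. Again there was no overlap (log2 fold change 1.85, SE 0.10, limma adjusted p = 2.6e-16).

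Several other targets differed more than puc and Mmp1. Ets21C, an Ets factor that cooperates with AP-1 in tumors, had 73.7, 76.5, 81.8 and 51.3 CPM in the day 10 tumors, against 1.92, 2.20, 2.88 and 2.01 CPM in the day 5 control discs. The control samples were all low (log2 fold change 4.45, SE 0.18, limma adjusted p = 3.1e-19). Its exons overlap those of a gene on the other strand over 28.3% of their bases. The serine protease homologue gene scaf had 870.4, 987, 914 and 949 CPM in the day 10 tumors, against 63.7, 80.7, 68.5 and 75.1 CPM in the day 5 control discs. Both groups were tight beside the difference (log2 fold change 3.68, SE 0.11, limma adjusted p = 1.6e-22). The filamin gene cher, whose product crosslinks actin, had 2457, 2596, 2343 and 2771 CPM in the day 10 tumors, against 367, 446, 388 and 466 CPM in the day 5 control discs, and its SD was small beside the difference, with a mean of 2542 ± 184 CPM in the tumors and 417 ± 46.9 CPM in the control discs (SD, n = 4 each, log2 fold change 2.61). The smallest changes were those of rpr, given below with cell death, and of Gadd45, a stress gene at 24.2 to 41.9 CPM in the tumors, against 17.1 to 25.6 CPM in the control discs, whose groups overlapped. Its log2 fold change of 0.53 (limma adjusted p = 0.024) fell to 0.42 without control replicate 2 and to 0.39 without tumor replicate 3 and then missed the threshold (adjusted p = 0.092 and 0.11).

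Secreted signals that act on other cells or tissues were mostly higher. Of 14 genes tested, 11 were higher, 8 of them by at least 2-fold, against 33.1% and 8.12% of all genes. Lower were 2, against 32.2%, and the median log2 fold change was 1.97. ImpL2, a secreted binding protein that antagonizes insulin-like peptides, had 1144, 788, 1331 and 508 CPM in the day 10 tumors, against 71.2, 60.1, 65.8 and 61.6 CPM in the day 5 control discs. As with ImpL3, tumor replicates 1 and 3 were the highest and replicate 4 the lowest, and all were far above the control samples (log2 fold change 3.76, SE 0.27, limma adjusted p = 3.5e-13). A share of 61.9% of the exonic bases of ImpL2 is shared with another gene on the same strand, so its count is uncertain. Sdr, another secreted antagonist of insulin signaling, went the other way, with 24.3, 20.9, 21.8 and 19.9 CPM in the day 10 tumors, against 45.1, 33.1, 56.8 and 50.4 CPM in the day 5 control discs (log2 fold change -1.04, SE 0.13, limma adjusted p = 2e-08).

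The PDGF- and VEGF-related ligands Pvf1, Pvf2 and Pvf3, which signal through the receptor Pvr, were all raised. Pvf1 had 65.3, 78.1, 57.3 and 55.3 CPM in the day 10 tumors, against 12.2, 8.28, 14.9 and 12.2 CPM in the day 5 control discs (log2 fold change 2.35, SE 0.13, limma adjusted p = 1.2e-15). Pvf2 was at 109 to 129 CPM in the tumors, against 25.6 to 37.6 CPM in the control discs (log2 fold change 1.82). The gene Pvf3 was at 10.6 to 15.4 CPM in the tumors, against 4.75 to 9.58 CPM in the control discs (log2 fold change 0.77). None of the 3 ligands overlapped between the groups.

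The activin ligand gene daw had 129, 143, 130.1 and 62.5 CPM in the day 10 tumors, against 10.7, 9.84, 17.17 and 13.99 CPM in the day 5 control discs. Tumor replicate 4 was far below the other 3 tumors and far above the control samples (log2 fold change 3.04, SE 0.38, limma adjusted p = 2.9e-08).

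The 3 cytokine genes upd1, upd2 and upd3 encode the ligands of the JAK/STAT pathway, which act through the receptor Domeless and the factor Stat92E. For upd1 there were 37.7, 37.8, 40.0 and 28.8 CPM in the tumors and 6.75, 8.20, 8.11 and 6.996 CPM in the control discs. For upd2 there were 15.1, 14.9, 15.4 and 10.4 CPM in the tumors and 0.456, 0.259, 0.755 and 0.527 CPM in the control discs. For upd3 there were 8.91, 12.3, 12.7 and 6.82 CPM in the tumors and 0.684, 0.820, 0.991 and 1.01 CPM in the control discs. All tumors lay above all control samples for each ligand, with log2 fold changes of 2.12, 3.31 and 2.54, and tumor replicate 4 was the lowest tumor for each. The receptor gene dome did not pass the test, at 305 to 352 CPM in the tumors, against 283 to 324 CPM in the control discs (limma adjusted p = 0.25), and Stat92E was slightly lower (log2 fold change -0.15, SE 0.04, limma adjusted p = 0.0046). The feedback inhibitor Socs36E, a known target of the pathway, was at 211 to 265 CPM in the tumors, against 96.5 to 107 CPM in the control discs (log2 fold change 1.18, SE 0.08, limma adjusted p = 5.9e-14). The homeodomain gene zfh2 was at 164 to 191 CPM in the tumors, against 456 to 474 CPM in the control discs (log2 fold change -1.39, SE 0.12, limma adjusted p = 3.8e-11). In all, 8 of 13 pathway genes and targets were higher, 3 were lower, and the median log2 fold change was 1.18.

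**Figure D2:**
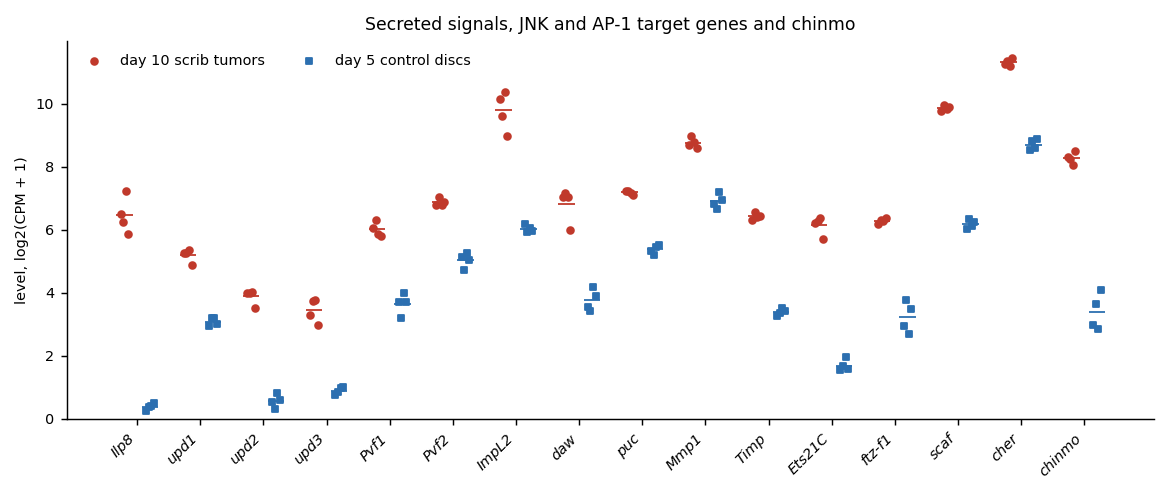
CPM on a log2(CPM + 1) axis of 16 signaling and target genes in each library, with day 10 tumors left of day 5 control discs and a line at each mean. Within each gene the tumors sit above the control discs without overlap, and Ilp8, at 57.2 to 149.8 CPM against 0.182 to 0.431 CPM, has the largest log2 fold change. The separation is set by the choice of genes. Members of the same lists that were lower (egr, wgn and Sdr) or overlapped (Gadd45) are not drawn.

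Other growth and patterning pathways showed smaller and mixed changes. For the EGFR and ERK pathway, 7 of 22 genes were higher and 10 were lower, against 33.1% and 32.2% of all genes. The median log2 fold change of this pathway was -0.12. The ligand gene spi was at 263 to 342 CPM in the tumors, against 188 to 232 CPM in the control discs (log2 fold change 0.64, SE 0.08, limma adjusted p = 1.2e-08). In contrast rho, the protease that releases this ligand, was at 2.61 to 4.11 CPM in the tumors, against 15.05 to 18.9 CPM in the control discs (log2 fold change -2.03, SE 0.12, limma adjusted p = 7.9e-15). The ligand gene vn was at 60.7 to 89.9 CPM in the tumors, against 56.3 to 60.5 CPM in the control discs and was not called (log2 fold change 0.34, limma adjusted p = 0.054). It passed the test without tumor replicate 2 or 4, at limma adjusted p = 0.022 and 0.041. The receptor gene Egfr was at 524 to 560.04 CPM in the tumors, against 506 to 558 CPM in the control discs. The effector pnt was at 49.5 to 58.4 CPM in the tumors, against 54.4 to 58.9 CPM in the control discs. Neither Egfr nor pnt passed the test, and their groups overlapped. The feedback target sty was at 176 to 223 CPM in the tumors, against 101.3 to 119.7 CPM in the control discs (log2 fold change 0.81). The secreted inhibitor aos was at 25.4 to 31.3 CPM in the tumors, against 17.3 to 19.1 CPM in the control discs (log2 fold change 0.59). The transmembrane inhibitor kek1 was at 85.4 to 112 CPM in the tumors, against 229.9 to 244 CPM in the control discs, so targets of the pathway differed in direction (log2 fold change -1.26, limma adjusted p = 9e-14).

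In the Hippo pathway, which restrains the transcriptional coactivator Yorkie, 12 of 21 genes were higher and 6 lower, with a median log2 fold change of 0.24. The upstream regulators and Yorkie targets kibra, ex and fj rose. For kibra there were 312, 343, 363 and 369 CPM in the tumors and 68.0, 66.5, 70.2 and 71.4 CPM in the control discs. The groups were narrow and far apart (log2 fold change 2.31, SE 0.07, limma adjusted p = 1.2e-22). The gene ex was at 912 to 1048 CPM in the tumors, against 522 to 572 CPM in the control discs (log2 fold change 0.84). The gene fj was at 689 to 822 CPM in the tumors, against 309.8 to 352 CPM in the control discs (log2 fold change 1.20). Other Yorkie targets, the caspase inhibitor gene Diap1 and the cyclin gene CycE, were not called, with log2 fold changes of 0.08 and -0.05 and overlapping groups. Yorkie itself, encoded by yki, was at 121 to 129.6 CPM in the tumors, against 111 to 119 CPM in the control discs (log2 fold change 0.13, SE 0.05, limma adjusted p = 0.036). This call was lost without any 1 of tumor replicates 2, 3 and 4 and control replicates 1 and 2, with limma adjusted p from 0.06 to 0.1, and with edgeR (adjusted p = 0.12). The atypical cadherin gene ds was lower, at 422 to 470.4 CPM in the tumors, against 713 to 816 CPM in the control discs (log2 fold change -0.78, SE 0.10, limma adjusted p = 3.1e-08).

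Against the day 5 control discs, genes of the Notch, Wingless and Hedgehog pathways were more often lower than higher. Of 22 Notch pathway genes, 14 were lower and 3 higher (median -0.25). The receptor N was at 634 to 695 CPM in the tumors, against 761 to 833 CPM in the control discs (log2 fold change -0.27). The ligand Dl was at 137 to 154 CPM in the tumors, against 178 to 200.3 CPM in the control discs (log2 fold change -0.37), while the ligand Ser was not called. Targets in the Enhancer of split complex went in different directions. E(spl)m4-BFM was at 3.95 to 4.43 CPM in the tumors, against 17.97 to 18.8 CPM in the control discs. E(spl)m3-HLH was at 67.2 to 77.0 CPM in the tumors, against 38.7 to 48.8 CPM in the control discs. Their log2 fold changes were -1.89 and 0.71. The gene ct, a Notch target at the wing margin, was at 25.9 to 42.6 CPM in the tumors, against 34.9 to 38.5 CPM in the control discs and was not called (log2 fold change -0.23, limma adjusted p = 0.11). Without tumor replicate 2, the highest tumor, ct was called as lower (-0.36, limma adjusted p = 0.0071).

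Of 20 Wingless pathway genes, 16 were lower and 4 higher, and the median log2 fold change was -0.39. The ligand wg had 70.1, 79.4, 99.2 and 61.5 CPM in the day 10 tumors, against 146, 141, 138 and 150.5 CPM in the day 5 control discs. Tumor replicate 3 was the highest tumor and was below every control sample (log2 fold change -0.91, SE 0.12, limma adjusted p = 8.6e-08). The ligand gene Wnt4 was at 10.4 to 16.2 CPM in the tumors, against 18.5 to 35.7 CPM in the control discs (log2 fold change -1.06). The ligand gene Wnt6 was at 45.5 to 54.7 CPM in the tumors, against 53.9 to 58.8 CPM in the control discs (log2 fold change -0.19). The feedback inhibitor gene nkd was at 227 to 280.4 CPM in the tumors, against 294 to 329 CPM in the control discs (log2 fold change -0.34). The target gene fz3 was at 44.7 to 57.8 CPM in the tumors, against 59.0 to 72.8 CPM in the control discs (log2 fold change -0.42). All 3 were called as lower, but the groups overlapped for Wnt6, and its call was lost without any 1 of tumor replicates 1 and 2 and control replicates 3 and 4 (limma adjusted p from 0.061 to 0.097). The receptor gene fz2, which wg represses in the pouch, was higher, at 1426 to 1644 CPM in the tumors, against 887 to 964 CPM in the control discs (log2 fold change 0.73). The gene sens, a zinc finger factor of sensory organ precursors, was at 0.0967 to 0.304 CPM in the tumors, against 8.37 to 11.9 CPM in the control discs. Its fall was the largest of the list (log2 fold change -3.16, SE 0.09, limma adjusted p = 1.5e-22), and the tumor values lay near or under the limit of detection.

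For Dpp and activin, 2 of 18 genes were higher, 8 lower and 8 not called. The BMP ligand dpp had 202, 188, 192 and 211 CPM in the day 10 tumors, against 87.9, 87.6, 86.3 and 92.0 CPM in the day 5 control discs. It rose in every tumor (log2 fold change 1.15, SE 0.06, limma adjusted p = 4.6e-17). The repressor gene brk was not called, at 134 to 163 CPM in the tumors, against 133 to 152 CPM in the control discs. The Dpp target bi was at 68.7 to 76.0 CPM in the tumors, against 221 to 243 CPM in the control discs (log2 fold change -1.64, SE 0.15, limma adjusted p = 8.4e-11). In the Hedgehog pathway 9 of 10 genes were lower and none passed as higher. The ligand hh was at 64.3 to 73.4 CPM in the tumors, against 83.9 to 97.6 CPM in the control discs (log2 fold change -0.38). The posterior selector en was at 56.9 to 70.4 CPM in the tumors, against 149 to 171 CPM in the control discs (log2 fold change -1.35). The receptor gene ptc was not called (log2 fold change -0.04), and ci, the effector, was at 291 to 346 CPM in the tumors, against 359 to 385 CPM in the control discs (log2 fold change -0.23, SE 0.06, limma adjusted p = 0.0014).

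**Figure D3:**
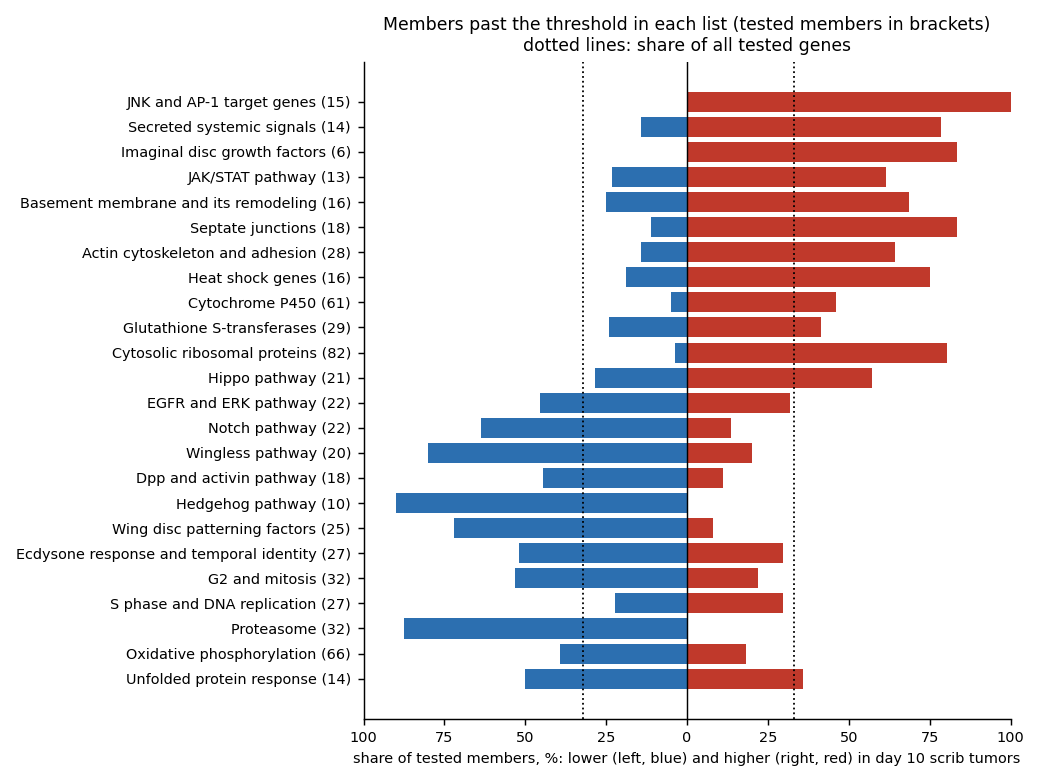
Share of tested genes in 24 lists that were higher in day 10 tumors (bars to the right) or lower (bars to the left) than in day 5 control discs, in percent of the tested members, with dotted lines at the shares over all genes, 33.1% higher and 32.2% lower. The JNK and AP-1 targets reach the full length on the right and the proteasome has 28 of 32 genes on the left.

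The transcription factors that set the regions of the wing disc were mostly lower. Of 25 factors, 18 were lower, 10 of them by at least 2-fold, against 32.2% and 4.46% of all genes. Higher were 2, against 33.1%, and 5 were not called. The median log2 fold change was -0.72, against 0.02 over all genes. The pouch genes nub and vg were both lower. For nub (chromosome 2L, 12587625 to 12628135, plus strand) there were 77.6, 81.8, 66.3 and 86.8 CPM in the tumors and 333, 313, 326 and 339 CPM in the control discs. The tumors lay close together, far below the control samples (log2 fold change -2.06, SE 0.16, limma adjusted p = 3.4e-12). For vg there were 229.95, 302, 253 and 256 CPM in the tumors and 422, 421, 406 and 458 CPM in the control discs, a smaller difference (log2 fold change -0.72, SE 0.12, limma adjusted p = 5.3e-06).

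The gene kn, which encodes a COE factor of the middle of the wing, fell the most, with 3.33, 2.68, 3.45 and 1.64 CPM in the day 10 tumors, against 54.2, 44.1, 53.2 and 53.1 CPM in the day 5 control discs (log2 fold change -3.81, SE 0.22, limma adjusted p = 1.4e-15). Also lower was bs, needed for the intervein regions, at 29.9 to 30.8 CPM in the tumors, against 118 to 145 CPM in the control discs (log2 fold change -2.09). The zinc finger gene rn of the distal wing was at 78.5 to 107 CPM in the tumors, against 267 to 289 CPM in the control discs (log2 fold change -1.62). The dorsal selector ap was at 194 to 234 CPM in the tumors, against 449.6 to 472 CPM in the control discs (log2 fold change -1.14). In the hinge and notum, hth was only slightly lower, at 448 to 484 CPM in the tumors, against 545 to 622 CPM in the control discs (log2 fold change -0.31, SE 0.05, limma adjusted p = 7.2e-06). The notum factor eyg was at 68.2 to 99.2 CPM in the tumors, against 87.9 to 106 CPM in the control discs. Another, pnr, was at 51.2 to 75.1 CPM in the tumors, against 51.1 to 52.2 CPM in the control discs. Neither was called. For eyg this rested on tumor replicate 3, without which it was called as lower (log2 fold change -0.39, limma adjusted p = 0.03). The notum gene tup stood against the rest, with 118, 135, 157 and 125 CPM in the day 10 tumors, against 33.7, 33.3, 28.3 and 34.4 CPM in the day 5 control discs. Every tumor was far above the control samples (log2 fold change 2.01, SE 0.09, limma adjusted p = 1e-17).

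**Figure D4:**
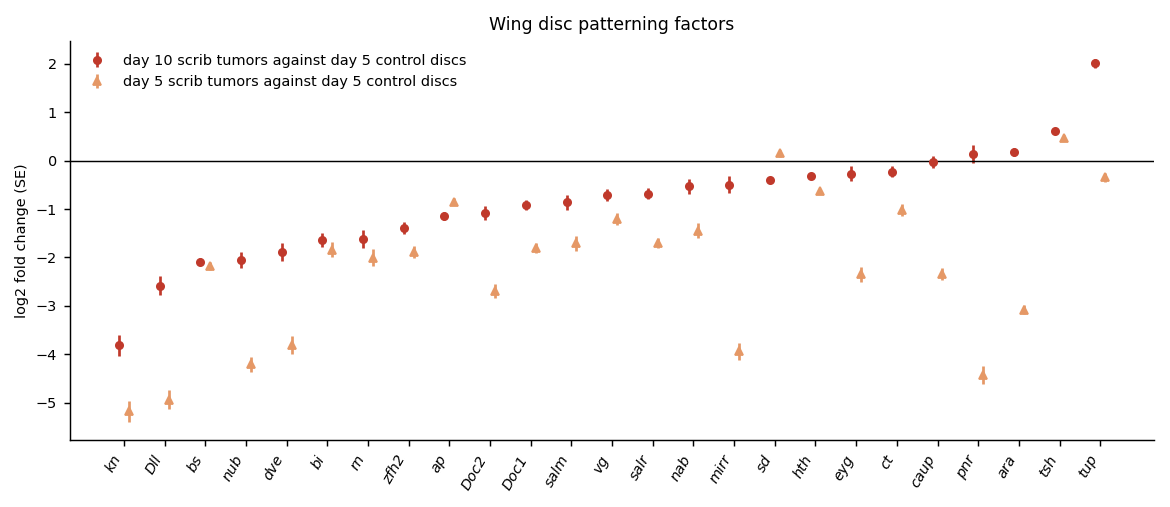
Log2 fold changes with SE on the y axis for 25 wing disc patterning factors along the x axis. Circles are day 10 tumors against day 5 control discs and triangles are day 5 tumors against the same control discs. The circles run from -3.81 for kn to 2.01 for tup, and the triangle of nub, at -4.21, lies below its circle, at -2.06.

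No Hox gene, the class that gives segments their identity, was called as lower. Of 6 tested, 4 were higher (median log2 fold change 0.52). Antp, the Hox gene of the wing-bearing segment, was at 109 to 126 CPM in the tumors, against 86.4 to 94.0 CPM in the control discs (log2 fold change 0.41, SE 0.06, limma adjusted p = 5.5e-07), and 50.1% of its exonic bases are shared with another gene on the same strand. Scr, the Hox gene of the segment before it, was low in both groups but higher in the tumors, at 4.58 to 11.6 CPM in the tumors, against 1.28 to 2.17 CPM in the control discs (log2 fold change 1.70, SE 0.21, limma adjusted p = 3.2e-08). Ubx, the Hox gene of the haltere segment, had 21.4, 51.5, 25.4 and 15.9 CPM in the day 10 tumors, against 12.8, 28.2, 18.3 and 19.6 CPM in the day 5 control discs. Its groups overlapped, and tumor replicate 2 was the highest library (log2 fold change 0.43, limma adjusted p = 0.16). Without tumor replicate 4 it was called as higher (log2 fold change 0.65, limma adjusted p = 0.036). Of 18 Polycomb group genes, which keep Hox genes silent, 10 were lower and 3 higher, with a median of -0.18, and the largest fall was that of Su(z)2, at 24.7 to 27.3 CPM in the tumors, against 42.6 to 46.4 CPM in the control discs (log2 fold change -0.75).

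Components of the basement membrane and the enzymes that reshape it were mostly raised. Of 16 genes, 11 were higher and 4 lower, with a median log2 fold change of 0.76. The chains of collagen IV are encoded by Col4a1 and vkg. Col4a1 had 197, 183, 179 and 195 CPM in the day 10 tumors, against 53.8, 82.7, 37.9 and 69.3 CPM in the day 5 control discs. The other chain, vkg, was at 144 to 158 CPM in the tumors, against 28.1 to 66.1 CPM in the control discs. The control samples ranked the same way for both genes, with replicate 2 the highest and replicate 3 the lowest, and the tumors were nearly level (log2 fold changes 1.67 and 1.75). The laminin gene LanA was at 807 to 912 CPM in the tumors, against 537 to 613 CPM in the control discs (log2 fold change 0.55, SE 0.06, limma adjusted p = 2.2e-09).

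The metalloproteinase genes and their inhibitor did not move together. Timp, the tissue inhibitor of metalloproteinases (chromosome 3R, 10203875 to 10213007, minus strand), had 77.6, 92.8, 84.3 and 85.5 CPM in the day 10 tumors, against 8.71, 9.23, 10.6 and 9.73 CPM in the day 5 control discs. This was the largest rise of the list (log2 fold change 3.03, SE 0.12, limma adjusted p = 1.4e-19). Mmp2, by contrast, had 47.1, 85.7, 49.1 and 28.6 CPM in the day 10 tumors, against 100.6, 67.6, 119 and 96.9 CPM in the day 5 control discs. Tumor replicate 2 overlapped the control samples, and the difference still passed the test (log2 fold change -0.93, SE 0.24, limma adjusted p = 0.0012). Papilin, a proteoglycan-like matrix protein encoded by Ppn, was at 269 to 394 CPM in the tumors, against 889 to 1150.2 CPM in the control discs (log2 fold change -1.65, SE 0.19, limma adjusted p = 5.7e-09).

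Beyond scrib, the polarity genes were mostly higher. Of 11, 7 were higher and 3 lower, with a median log2 fold change of 0.35. Among the partners of scrib, l(2)gl was at 503 to 559 CPM in the tumors, against 297 to 311 CPM in the control discs (log2 fold change 0.78, SE 0.04, limma adjusted p = 1.6e-16). The other partner, dlg1, was not called, at 237 to 266 CPM in the tumors, against 255.1 to 268 CPM in the control discs. The apical genes crb and sdt had log2 fold changes of 0.35 and 1.37, and yrt, a negative regulator of crb, had -0.39. Septate junctions seal epithelia below the adherens junctions, and 15 of their 18 genes were higher and 2 lower, none by as much as 2-fold (median 0.40). The adhesion molecule gene Nrg was at 1016 to 1223 CPM in the tumors, against 549 to 598 CPM in the control discs (log2 fold change 0.94). The band 4.1 homologue cora was at 742 to 835 CPM in the tumors, against 576 to 615 CPM in the control discs (log2 fold change 0.39). Gliotactin, encoded by Gli and found where 3 cells meet, was lower, at 277 to 296 CPM in the tumors, against 317 to 364 CPM in the control discs (log2 fold change -0.25).

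Actin and integrin genes rose in the main. Of 28 tested, 18 were higher, 9 by at least 2-fold, and 4 were lower, with a median log2 fold change of 0.63. After cher came cindr, an adaptor at cell contacts, with 364, 422, 374 and 439 CPM in the day 10 tumors, against 138, 127, 138 and 139.8 CPM in the day 5 control discs (log2 fold change 1.55, SE 0.05, limma adjusted p = 1.1e-20). The focal adhesion gene Pax was at 290.1 to 349 CPM in the tumors, against 111 to 119.7 CPM in the control discs (log2 fold change 1.41). The beta integrin gene mys was at 615 to 689 CPM in the tumors, against 293 to 319.9 CPM in the control discs (log2 fold change 1.12). The actin elongation factor gene ena was lower, at 176 to 244 CPM in the tumors, against 259.95 to 306 CPM in the control discs (log2 fold change -0.46, SE 0.08, limma adjusted p = 1.3e-05). Among members named after their values were seen, the integrin subunit gene scb was at 264 to 299.8 CPM in the tumors, against 61.7 to 84.8 CPM in the control discs. The adherens junction gene shg, which encodes E-cadherin, was at 496 to 561 CPM in the tumors, against 673 to 742 CPM in the control discs. Their log2 fold changes were 1.88 and -0.42.

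Glycolytic genes other than ImpL3 differed by less than 2-fold. Of 15 glycolytic genes, 4 were higher, 2 lower and 9 not called, and the median log2 fold change was -0.03. Pyruvate kinase, encoded by PyK, was at 534 to 594 CPM in the tumors, against 380.3 to 409 CPM in the control discs (log2 fold change 0.52, SE 0.06, limma adjusted p = 8.6e-09). Pfk, which encodes phosphofructokinase, had 195, 146, 233 and 106 CPM in the day 10 tumors, against 197, 217, 209.99 and 204 CPM in the day 5 control discs. The tumors again ran high in replicates 1 and 3 and low in 2 and 4, and the groups overlapped (log2 fold change -0.34, limma adjusted p = 0.09). Without tumor replicate 3 it was called as lower (-0.52, limma adjusted p = 0.012). Trehalase, which splits the blood sugar of insects and is encoded by Treh, was at 30.5 to 50.2 CPM in the tumors, against 73.6 to 83.8 CPM in the control discs (log2 fold change -0.88, SE 0.14, limma adjusted p = 2.1e-06).

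Of 66 nuclear genes of oxidative phosphorylation, 26 were lower, 12 higher and 28 not called, with none changed by 2-fold and a median of -0.13. The ATP synthase gene blw had 1281, 1384, 1231 and 1293 CPM in the day 10 tumors, against 1853, 1954, 1850.5 and 1954 CPM in the day 5 control discs (log2 fold change -0.55, SE 0.07, limma adjusted p = 1.9e-08), and the cytochrome oxidase genes COX7A and COX4 had log2 fold changes of -0.77 and -0.30. The cytochrome c gene Cyt-c-p went the other way, at 92.1 to 123 CPM in the tumors, against 52.3 to 58.0 CPM in the control discs (log2 fold change 0.94, SE 0.09, limma adjusted p = 9.1e-11). In the citrate cycle 6 genes were higher and 6 lower of 15. Citrate synthase, encoded by kdn, was at 159 to 184 CPM in the tumors, against 236 to 252 CPM in the control discs (log2 fold change -0.51). Aconitase, encoded by Acon, was at 304 to 342 CPM in the tumors, against 377 to 394 CPM in the control discs (log2 fold change -0.27). Malate dehydrogenase, encoded by Mdh2, went the other way, at 226 to 236 CPM in the tumors, against 182 to 190.2 CPM in the control discs (log2 fold change 0.31).

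Cytosolic ribosomal protein genes were mostly slightly higher in the tumors. Of 82 cytosolic ribosomal protein genes tested, 66 were higher in the tumors and 3 lower, against 33.1% and 32.2% of all genes, with a median log2 fold change of 0.29 and none changed by 2-fold. The ribosomal gene RpL3 was at 4995 to 5323 CPM in the tumors, against 4414 to 4694 CPM in the control discs (log2 fold change 0.17, SE 0.05, limma adjusted p = 0.0026). Several ribosomal genes have processed copies, so single members are less certain than the count. Of 71 mitochondrial ribosomal protein genes, 19 were higher and 25 lower (median -0.03), against the same 33.1% and 32.2% of all genes. Of 23 genes for ribosome biogenesis, 11 were lower and 5 higher. Nnp-1, a nucleolar protein gene, was at 114 to 122 CPM in the tumors, against 150.1 to 165 CPM in the control discs (log2 fold change -0.44). The nucleolar helicase gene pit was at 114 to 123 CPM in the tumors, against 136 to 151 CPM in the control discs (log2 fold change -0.31). In contrast Non1, a GTP-binding nucleolar protein gene, was at 1159 to 1372 CPM in the tumors, against 451 to 512 CPM in the control discs (log2 fold change 1.37, SE 0.05, limma adjusted p = 9.9e-20).

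All 28 proteasome genes that passed the test were lower, of 32 tested, and 29 were lower with no overlap, against 32.2% and 30.0% of all genes. The median log2 fold change was -0.44, so the fall was shared and small. The base subunit gene Rpn2 had 329.5, 357, 352 and 302 CPM in the day 10 tumors, against 579, 572, 585 and 604 CPM in the day 5 control discs (log2 fold change -0.80, SE 0.05, limma adjusted p = 9.7e-15). The core subunit gene Prosalpha2 was at 231 to 238 CPM in the tumors, against 272 to 278 CPM in the control discs (log2 fold change -0.23).

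In the insulin and TOR pathway 8 of 16 genes were higher and 5 lower. Thor encodes the translation repressor 4E-BP, a target of the factors Foxo and ATF4 (chromosome 2L, 3478434 to 3479612, plus strand). It had 163, 138, 166 and 101.2 CPM in the day 10 tumors, against 7.34, 11.2, 5.05 and 6.09 CPM in the day 5 control discs. All 4 tumors were far above the control samples (log2 fold change 4.11, SE 0.15, limma adjusted p = 1.4e-20). The kinase gene Tor was at 97.2 to 107 CPM in the tumors, against 157 to 168 CPM in the control discs (log2 fold change -0.68, SE 0.05, limma adjusted p = 1.2e-12). The receptor gene InR was not called, at 119 to 149 CPM in the tumors, against 118 to 126 CPM in the control discs. Myc, a driver of growth and ribosome production, was at 178 to 199 CPM in the tumors, against 96.1 to 106 CPM in the control discs (log2 fold change 0.86, SE 0.08, limma adjusted p = 2.9e-11), and 61.2% of its exonic bases are shared with other genes, so its count is uncertain.

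None of the listed cell cycle genes differed by 2-fold from the day 5 control discs. Of 27 S phase genes, 8 were higher, 6 lower and 13 not called (median 0.06). PCNA, the replication clamp, was at 273 to 279.7 CPM in the tumors, against 241 to 292 CPM in the control discs. RnrL, the large subunit of ribonucleotide reductase, was at 231 to 262 CPM in the tumors, against 207 to 248 CPM in the control discs. Neither was called. Of 32 genes of G2 and mitosis, 17 were lower and 7 higher (median -0.15). Cdk1, the mitotic kinase, was at 95.4 to 101.5 CPM in the tumors, against 155 to 174 CPM in the control discs (log2 fold change -0.74). Its partner CycB was at 178 to 219 CPM in the tumors, against 311 to 344 CPM in the control discs (log2 fold change -0.73). Cks30A, a subunit that binds cyclin-dependent kinases, was at 60.5 to 70.7 CPM in the tumors, against 77.6 to 92.3 CPM in the control discs (log2 fold change -0.38). In contrast, the phosphatase gene stg, the Cdc25 homologue that activates Cdk1, had 247, 227, 264 and 237 CPM in the day 10 tumors, against 123, 131, 123 and 131 CPM in the day 5 control discs. The groups were well separated (log2 fold change 0.94, SE 0.09, limma adjusted p = 1.3e-10). Against the day 4 control discs, 24 of the 27 S phase genes were lower in the day 10 tumors and 1 was higher (median -0.47). Of the 32 genes of G2 and mitosis, 25 were lower than in those discs and 2 higher (median -0.51). The shares over all genes in that contrast were 31.8% lower and 33.5% higher.

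The cell death genes rpr and hid, which encode antagonists of Diap1, differed in direction. The gene rpr was at 18.7 to 26.8 CPM in the tumors, against 13.96 to 15.7 CPM in the control discs (log2 fold change 0.53, SE 0.11, limma adjusted p = 0.00016), with no overlap. In contrast hid was at 64.1 to 67.7 CPM in the tumors, against 95.2 to 111 CPM in the control discs (log2 fold change -0.67, SE 0.08, limma adjusted p = 1.7e-08). Of 13 apoptosis genes, 4 were higher and 4 lower. Xrp1, a bZIP factor of stress and cell competition, had 1031, 1169.8, 1185 and 1124 CPM in the day 10 tumors, against 403, 392.4, 413 and 411 CPM in the day 5 control discs. The groups lay far apart (log2 fold change 1.47, SE 0.06, limma adjusted p = 9.9e-20).

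Heat shock genes were mostly raised, with 12 of 16 higher, 11 by at least 2-fold, 3 lower and a median log2 fold change of 1.67. The 3 lower genes all fell by at least 2-fold. Summed over the 18 listed genes, the level was not raised, with a mean of 7547 CPM in the tumors (6130 to 9593 CPM) and 9403 CPM in the control discs (8537 to 10259 CPM). Hsp68 led, as given above, and the constitutive chaperone gene Hsp83 was at 3564 to 4623 CPM in the tumors, against 2877 to 3313 CPM in the control discs (log2 fold change 0.38, SE 0.11, limma adjusted p = 0.002). Hsp67Ba was at 0.483 to 2.99 CPM in the tumors, against 33.4 to 47.9 CPM in the control discs (log2 fold change -4.20), but 75.9% of its exonic bases lie over a gene on the other strand, and Hsp22, whose exons are shared in full with a neighbor, was listed at 0 in all 8 libraries. In the unfolded protein response, 5 of 14 genes were higher and 7 lower. The chaperone gene Hsc70-3, encoding BiP, was at 657 to 863 CPM in the tumors, against 1469 to 1884 CPM in the control discs (log2 fold change -1.11, SE 0.07, limma adjusted p = 5.5e-14). The gene crc, which encodes ATF4, was at 305 to 325 CPM in the tumors, against 213 to 251 CPM in the control discs (log2 fold change 0.46, with 73.5% of its exonic bases shared with another gene), and Xbp1 was not called.

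Among enzymes of detoxification, few P450 genes were lower. Of 61 tested P450 genes, 28 were higher and 3 lower, against 33.1% and 32.2% of all genes (median log2 fold change 0.35). Of 29 glutathione S-transferase genes 12 were higher and 7 lower, nearer to those shares, with a median of 0.04 against 0.02 over all genes. GstD1 was at 1579 to 1666 CPM in the tumors, against 737 to 757 CPM in the control discs (log2 fold change 1.11, SE 0.08, limma adjusted p = 9.2e-13). Its relative GstD3 was at 12.02 to 18.9 CPM in the tumors, against 0.425 to 0.719 CPM in the control discs (log2 fold change 3.36, SE 0.13, limma adjusted p = 1.3e-19). Among lower members, Cyp301a1, a P450 of the cuticle, was at 3.67 to 4.98 CPM in the tumors, against 22.6 to 25.3 CPM in the control discs. GstZ2 was at 0.0967 to 0.202 CPM in the tumors, against 1.90 to 3.47 CPM in the control discs. They had log2 fold changes of -2.23 and -1.63.

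Among genes of Toll, Imd and antimicrobial peptides, 10 of 26 were higher and 1 lower, against 33.1% and 32.2% of all genes. The peptidoglycan sensor gene PGRP-SA had 41.4, 55.9, 41.6 and 33.1 CPM in the day 10 tumors, against 0.866, 0.863, 1.37 and 1.68 CPM in the day 5 control discs. It was low in the control discs and well above them in each tumor (log2 fold change 4.32, SE 0.12, limma adjusted p = 2.9e-23). The NF-kappaB gene Rel was at 99.7 to 115.4 CPM in the tumors, against 60.6 to 62.5 CPM in the control discs (log2 fold change 0.80, SE 0.04, limma adjusted p = 4.6e-17). Antimicrobial peptide genes themselves stayed low, with Drosomycin, encoded by Drs, at 1.62 to 17.9 CPM in the tumors, against 0.236 to 0.992 CPM in the control discs (log2 fold change 1.96). The diptericin gene DptA was at 0.290 to 5.82 CPM in the tumors, against 0 to 0.335 CPM in the control discs, which missed the threshold (log2 fold change 1.26, limma adjusted p = 0.12). On reads, DptA was called as higher by edgeR (4.36, adjusted p = 0.0089).

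Imaginal disc growth factors, chitinase-like secreted proteins, were higher in 5 of 6 genes, with a median log2 fold change of 2.68. Idgf2 was at 25.9 to 37.0 CPM in the tumors, against 1.60 to 2.29 CPM in the control discs (log2 fold change 3.53, SE 0.16, limma adjusted p = 3.1e-18). Idgf3 was at 13.0 to 21.8 CPM in the tumors, against 2.74 to 5.26 CPM in the control discs (log2 fold change 2.02).

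Genes of chitin and the apical matrix split evenly, with 9 higher and 9 lower of 23. The chitin deacetylase genes serp and verm were abundant and higher. For verm there were 3127, 3482, 3097 and 3682 CPM in the tumors and 749, 747, 924 and 883 CPM in the control discs. The relative serp was at 1295 to 1553 CPM in the tumors, against 326 to 419 CPM in the control discs. No tumor overlapped a control sample for either (log2 fold changes 2.02 and 1.93). The chitin-binding gene obst-E was at 16.2 to 28.7 CPM in the tumors, against 0.182 to 0.527 CPM in the control discs (log2 fold change 4.12, SE 0.14, limma adjusted p = 7.2e-21). At the other end was m, a zona pellucida protein gene of the apical matrix at 0.0498 to 0.455 CPM in the tumors, against 6.69 to 15.7 CPM in the control discs (log2 fold change -3.32, SE 0.15, limma adjusted p = 9.6e-18). The chitin synthase gene kkv was not called. Cuticle proteins of the Rebers-Riddiford family were higher in 16 and lower in 10 of 44 tested genes, from a family of 99 listed. Cpr64Aa was at 284 to 741 CPM in the tumors, against 47.8 to 130.4 CPM in the control discs (log2 fold change 2.39). Cpr56F was at 0.0483 to 0.202 CPM in the tumors, against 4.23 to 6.37 CPM in the control discs (log2 fold change -2.53). Of the 24 Tweedle cuticle genes 5 were tested and 1 was lower. Germline genes, which some brain tumors of the fly turn on, were higher in 4 and lower in 3 of 10. The shares over all genes were 33.1% and 32.2%.

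Among genes linked to oxygen and tracheal supply, the largest rise was that of bnl and the largest fall that of dysf. The FGF ligand gene bnl, which attracts tracheal branches, had 64.8, 25.6, 68.8 and 22.1 CPM in the day 10 tumors, against 5.34, 5.61, 5.38 and 5.70 CPM in the day 5 control discs. Tumor replicates 1 and 3 were well above replicates 2 and 4, and the control samples were level (log2 fold change 2.66, SE 0.32, limma adjusted p = 2.1e-08). The bHLH-PAS gene dysf, which acts in tracheal fusion cells, was at 2.90 to 3.59 CPM in the tumors, against 16.2 to 19.5 CPM in the control discs (log2 fold change -2.09, SE 0.13, limma adjusted p = 1.7e-14). Of the 7 genes tested on this list, 3 were higher and 3 lower.

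Tumors of other ages were set beside these differences. Against tumors of the same genotype at 5 days, the day 10 tumors differed in 5812 genes (60.3%), with 2815 higher (29.2%) and 2997 lower (31.1%). Day 5 tumors differed from the day 5 control discs, at the same age, in 6890 genes (71.5%), with 3755 higher (39.0%) and 3135 lower (32.5%). Nearer in age, day 10 tumors differed from day 8 tumors in 2278 genes (23.6%) and from day 14 tumors in 3536 genes (36.7%). Against the younger control discs of day 4, 6293 genes (65.3%) differed. These contrasts share samples with the main one, and their values are given side by side only.

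The JNK and AP-1 targets were high in day 5 tumors already. Their median log2 fold change against day 5 control discs was 3.38 in day 5 tumors and 2.12 in day 10 tumors, and 10 of 15 were lower in day 10 than in day 5 tumors while 1 was higher. Mmp1 averaged 858 CPM at 5 days, 482 CPM at 8 days, 434 CPM at 10 days and 334 CPM at 14 days in tumors, against 120.3 CPM in day 5 control discs. The log2 fold change of day 10 over day 5 tumors was -0.99 (SE 0.10, limma adjusted p = 7.8e-10). The gene upd1 averaged 96.9, 47.6, 36.1 and 27.9 CPM at the same 4 ages, against 7.51 CPM in the control discs, and was also lower in day 10 than in day 5 tumors (log2 fold change -1.41, limma adjusted p = 8e-12). Other targets did not fall steadily. The means of puc were 177, 151, 145 and 173 CPM, with day 10 below day 14 (log2 fold change -0.25, limma adjusted p = 0.018). Those of ftz-f1 were 96.4, 83.2, 77.2 and 128 CPM, and those of scaf 811, 915, 930 and 635 CPM. Of the 15 targets, 9 were higher in day 10 than in day 14 tumors and 2 were lower. Ilp8 averaged 64.0 CPM at 5 days, 56.3 CPM at 8 days, 92.7 CPM at 10 days and 35.7 CPM at 14 days, and its day 10 level did not pass the test against day 5 tumors (limma adjusted p = 0.14).

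Patterning genes showed the opposite course. Their median log2 fold change against the day 5 control discs was -1.88 in day 5 tumors and -0.72 in day 10 tumors, and 20 of 25 were higher in day 10 than in day 5 tumors. For pnr the tumors averaged 1.51, 24.5, 57.5 and 77.8 CPM at 5, 8, 10 and 14 days, against 51.7 CPM in day 5 control discs. For nub they averaged 17, 57.4, 78.1 and 71.2 CPM, against 328 CPM. At 10 days pnr was thus not called against the control discs, and nub was called as lower.

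Part of the oxidative phosphorylation genes were higher in day 5 tumors and lower in day 10 tumors than in day 5 control discs. Of 66 oxidative phosphorylation genes, 60 were higher in day 5 tumors than in day 5 control discs and none was lower, while 60 were lower in day 10 than in day 5 tumors, with a median log2 fold change of -0.54 between the tumor ages. Against the day 5 control discs, 25 of the 66 were called as higher in day 5 tumors and as lower in day 10 tumors, and 11 were called as higher at both ages. This crossing depends on the age of the control discs. Against those of day 4, 58 of the 66 were lower in day 10 tumors and 1 was higher (median -0.55). The listed genes summed to a mean of 14823 CPM in day 4 control discs and 11055 CPM in day 5 control discs. In day 5 tumors they summed to 14785 CPM. The citrate synthase gene kdn averaged 417, 219.8, 169 and 122 CPM in tumors at 5, 8, 10 and 14 days, against 241 CPM in day 5 control discs. ImpL3 averaged 54.6, 296, 809 and 814 CPM, against 16.5 CPM, and its log2 fold change of day 10 over day 5 tumors was 3.56 (SE 0.50, limma adjusted p = 4.2e-07). The activin ligand daw peaked at 10 days among these ages, with 3.05, 40.8, 116 and 16.7 CPM, and its day 5 tumor mean was under that of the control discs, 12.9 CPM. Heat shock genes were higher in day 10 than in day 5 tumors in 15 of 16 cases, and Hsp68 averaged 95.4, 14.73, 495 and 1081 CPM at the 4 ages, with no steady course.

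Against control discs at 4 days the ecdysone-inducible genes differed among themselves. ImpE1 averaged 22.05 CPM in the day 10 tumors and 48.0 CPM in the day 4 control discs, and was called as lower against these discs too (log2 fold change -1.25, limma adjusted p = 0.00045). ImpE2 averaged 13.2 CPM in the day 10 tumors, against 35.9 CPM in control discs at 4 days and 6057 CPM at 5 days, and the tumors did not pass the test against the day 4 discs (log2 fold change -1.03, limma adjusted p = 0.22). The 3 day 4 samples had 20.3, 83.5 and 3.77 CPM of ImpE2, so their mean rests on replicate 2. Blimp-1 averaged 3.21 CPM in the day 10 tumors and 0.187 CPM in day 4 control discs (log2 fold change 1.26, limma adjusted p = 0.0073). Hr4 averaged 12.7 CPM in the tumors and 1.33 CPM in day 4 discs (1.44, limma adjusted p = 0.04). Tumor replicate 2 carried much of both differences from the day 4 discs. Without it the tumors averaged 0.912 CPM of Blimp-1 (log2 fold change 0.61, limma adjusted p = 0.047). Hr4 then averaged 2.45 CPM in the tumors and was no longer called (log2 fold change 0.50, limma adjusted p = 0.33). Of 15 JNK and AP-1 targets, 13 were higher in the tumors than in the day 4 control discs, against 33.5% of all genes. The exceptions were ftz-f1, which was not called (log2 fold change 0.29, limma adjusted p = 0.083), and rpr, which was lower (log2 fold change -1.11, limma adjusted p = 4.7e-09). Others had log2 fold changes against day 4 control discs of 1.86 for puc, 2.76 for Mmp1, 3.49 for scaf and 3.81 for Ets21C. The gene chinmo averaged 312 CPM in the tumors, against 150.3 CPM in control discs at 4 days and 10.2 CPM at 5 days, with log2 fold changes of 1.04 and 4.88. Some pathway lists also read otherwise against the day 4 discs. There, 11 of 22 Notch pathway genes were higher and 3 lower (median 0.25). Of 20 Wingless pathway genes, 8 were higher and 4 lower (median 0.05). Of 10 Hedgehog pathway genes, 3 were higher and 5 lower (median -0.13). The shares over all genes were 33.5% higher and 31.8% lower.

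Transcripts of other cell types were read through 10 marker lists, counting the genes of dosage compensation, since discs carry blood cells, muscle precursors and tracheal tubes and can be dissected with pieces of other tissue. Hemocyte markers summed to 191, 176, 150.1 and 181 CPM in the tumors, against 147, 134, 99.4 and 116 CPM in the control discs, without overlap. In 2-sided exact permutation tests of these sums, p = 0.0286 is the smallest that the 70 arrangements of 4 against 4 allow, and with Benjamini-Hochberg adjustment over the 10 lists it becomes 0.0571. Of 10 tested markers 8 were higher and none lower. Hml, which encodes a clotting protein of plasmatocytes, was at 18.01 to 40.2 CPM in the tumors, against 0.943 to 4.23 CPM in the control discs (log2 fold change 2.95, SE 0.38, limma adjusted p = 5.4e-08). NimC1, a phagocytosis receptor, was at 6.39 to 11.6 CPM in the tumors, against 2.88 to 3.92 CPM in the control discs (log2 fold change 1.18). Like the hemocyte sum, 11 of 16 basement membrane genes, some of which hemocytes also express, and PGRP-SA and Drs were higher in the tumors. Only the direction between the groups is shared, and the part of hemocytes in those results was not tested.

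Larval muscle markers summed to 309, 232, 267 and 338 CPM in the tumors, against 121, 125, 148 and 152 CPM in the control discs (exact p = 0.0286, adjusted 0.0571), and 12 of 15 were higher. Myosin heavy chain, encoded by Mhc, was at 12.5 to 32.6 CPM in the tumors, against 0.547 to 2.40 CPM in the control discs (log2 fold change 3.43). The larval muscle sum averaged 286 CPM in the day 10 tumors, 786 CPM in day 5 tumors and 554 CPM in day 4 control discs. Against the day 4 control discs, 12 of the 15 markers were lower in the day 10 tumors and none was higher, beside 31.8% and 33.5% of all genes. Markers of adult muscle precursors, which lie under the notum epithelium, summed to similar values, 265, 277, 322 and 274 CPM in the tumors and 279, 273, 297 and 296 CPM in the control discs (exact p = 0.914, adjusted 0.914), and the myoblast gene twi was at 46.1 to 63.9 CPM in the tumors, against 41.6 to 46.0 CPM in the control discs. It was not called with all libraries (log2 fold change 0.22), but was without tumor replicate 1 (0.27) or 4 (0.26). The 2 tracheal factors trh and dysf were both lower, and trh, which is also expressed in the disc epithelium, was at 36.8 to 49.4 CPM in the tumors, against 100.5 to 114 CPM in the control discs. Neuron and glia markers summed to 128 to 141 CPM in the tumors and 95.0 to 100.8 CPM in the control discs (exact p = 0.0286, adjusted 0.0571), mostly through Syx1A, with a mean of 87.0 and 41.8 CPM, while the glial gene repo stayed below 1 CPM in all 8 libraries.

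Other tissues varied from library to library. Fat body markers summed to 426, 119, 18.9 and 10.5 CPM in the tumors, against 844, 1116, 108 and 343 CPM in the control discs, with overlap (exact p = 0.143, adjusted 0.204). Of 7 tested fat body markers, 1 was called as higher, 2 as lower and 4 were not called, beside 33.1% higher and 32.2% lower over all genes. The fat body gene Fbp1 had 80.4, 7.996, 5.33 and 1.84 CPM in the day 10 tumors, against 632, 701, 87.5 and 195 CPM in the day 5 control discs (log2 fold change -4.79, SE 1.07, limma adjusted p = 0.00025), and its log2 fold change was -5.77 without tumor replicate 1 and -4.15 without tumor replicate 4. Gut markers summed to 612, 16.8, 12.4 and 25.4 CPM in the tumors and 51.5, 1.51, 269 and 75.0 CPM in the control discs (exact p = 0.914, adjusted 0.914). Of 26 tested gut markers, 2 were called as higher, 1 as lower and 23 were not called. The digestive protease Jon65Aiv had 376, 0.152, 0.152 and 0.145 CPM in the day 10 tumors, against 29.0, 0.302, 139 and 41.3 CPM in the day 5 control discs, so single libraries were far from the others. It was not called with all 8 libraries (log2 fold change -2.16) and was called as lower without tumor replicate 1 (-4.25) or without control replicate 2 (-3.52).

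Salivary gland markers summed to 0.149, 0.101, 0.457 and 0.0967 CPM in the tumors, against 15.5, 18.1, 25.9 and 158 CPM in the control discs (exact p = 0.0286, adjusted 0.0571). Sgs3, a glue protein made only at the end of larval life, had 0, 0, 0.101 and 0 CPM in the day 10 tumors, against 4.33, 5.13, 8.16 and 65.3 CPM in the day 5 control discs. Its log2 fold change of -3.53 was -2.71 without control replicate 4. Steroid gland markers summed to 14.98, 12.1, 14.9 and 11.3 CPM in the tumors and 13.7, 15.8, 19.3 and 15.9 CPM in the control discs (exact p = 0.143, adjusted 0.204). The genes of dosage compensation and sex, roX1 among them, summed to 767, 391, 695 and 1120.2 CPM in the tumors and 679.7, 706, 649 and 705 CPM in the control discs (exact p = 0.657, adjusted 0.821). The hydroxylase gene phm of the prothoracic gland was at 2.08 to 4.67 CPM in the tumors, against 2.74 to 4.36 CPM in the control discs and not called (limma adjusted p = 0.49).

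**Figure D5:**
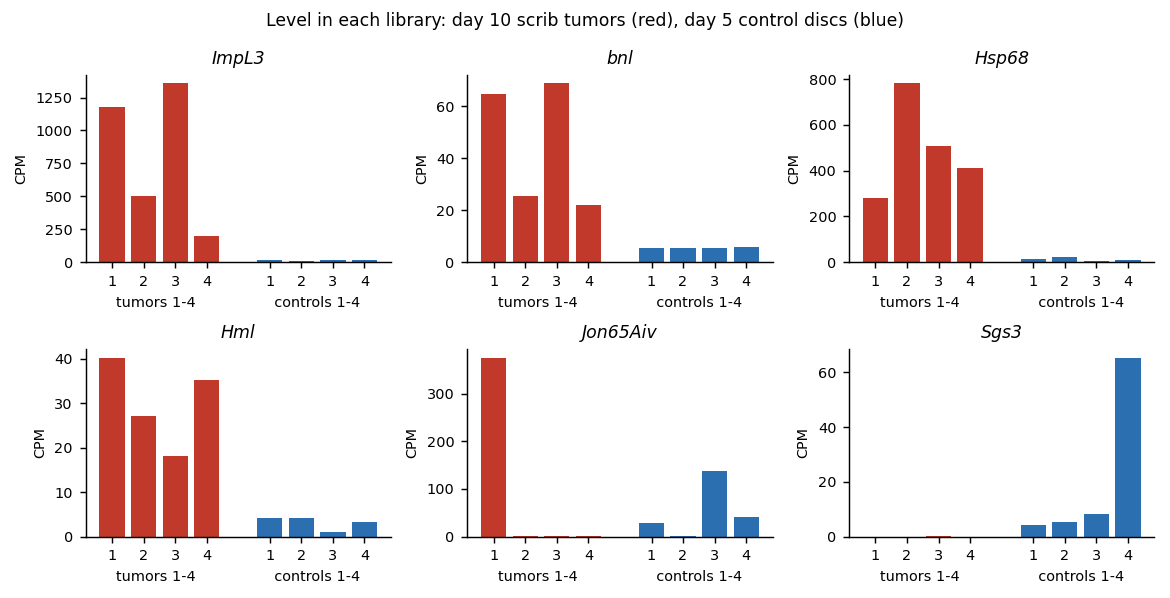
CPM in each of the 8 libraries, as bars from 0, for ImpL3, bnl, Hsp68, Hml, Jon65Aiv and Sgs3, with the 4 day 10 tumors left of the 4 day 5 control discs. ImpL3 and bnl are high in tumor replicates 1 and 3, Jon65Aiv reaches 376 CPM in tumor replicate 1 alone among the tumors, and Sgs3 reaches 65.3 CPM in control replicate 4.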

How the data were processed

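Wing discs were sequenced as bulk RNA in all samples. The authors aligned reads to BDGP6 with STAR (maximum intron 100000 bases), counted them per gene with featureCounts at default settings, which ignore strand and leave out reads shared by overlapping genes, and scaled them with edgeR. The authors deposited CPM on scaled library sizes. In 14 files the deposited CPM stay within the nominal total, and in the other 20 files the scaling makes them a signal that sums to more. All values (100%, within 0.1 read) were whole reads times 1 factor, and reads were recovered for filters, edgeR and DESeq2.

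limma 3.58.1 (R 4.3.3) was fitted to log2(CPM + 1) over all 34 libraries in 9 groups, with a spread that depends on mean level. Benjamini-Hochberg adjustment was over the 9637 genes kept by filterByExpr. The fit was also run on simulated data with a single spread for all genes and few changed genes. That setting is unlike these data, so the run does not test the calls made here. A call was an adjusted p below 0.05. Alternatives used edgeR 4.0.16, DESeq2 1.42.0, pseudocounts of 0.1 and 5, other filters, scalings and samples, and the replicate number as a block. Genes were named from a set of 241, of which 183 have values in the text. These are the 12 most raised and 12 most reduced genes averaging at least 10 CPM in the higher group without overlap, genes named in the study, and from each list preset anchors and its highest and lowest called member. Comparison and lists were chosen with earlier results of these data known. Symbols gave 99.1% of 17641 genes a position (BDGP6). Some members of the lists were not analysed here.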

Additional observations from a re-analysis of the deposited data

Results flagged for a closer look

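In 27 of 394 groups of 4 libraries examined, 1 library lay apart from the other 3 by more than Dixon's critical value, and chance alone marks about 1 group in 20. Tumor replicate 2 was high for genes of the ecdysone response, with 10.1 CPM of Blimp-1, 43.3 CPM of Hr4, 11.7 CPM of Eip78C and 217 CPM of Eip74EF, and also for Spn100A (6.07 CPM) and m (0.455 CPM). Tumor replicate 1 was high for Jon65Aiv (376 CPM), for the summed gut markers (612 CPM), for Fbp1 (80.4 CPM) and for Eip93F (0.796 CPM), and low for E(spl)m3-HLH (67.2 CPM) and yki (121 CPM). Tumor replicate 3 was high for pnr (75.1 CPM), pnt (58.4 CPM), Sgs3 (0.101 CPM) and the summed salivary gland markers (0.457 CPM). Tumor replicate 4 was low for daw (62.5 CPM) and upd2 (10.4 CPM) and high for CG42492 (47.6 CPM).

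Among the control discs, replicate 4 was high for Sgs3 (65.3 CPM), the summed salivary gland markers (158 CPM), eyg (106 CPM) and kdn (252 CPM). Replicate 2 was low for kn (44.1 CPM) and cindr (127 CPM) and high for Cyp6a17 (0.431 CPM), and replicate 1 was high for wgn (70.6 CPM).

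Of 187 genes compared, 15 lay on opposite sides of the day 5 control discs in day 10 and day 5 tumors, with both differences and the one between the tumor ages past the threshold. The log2 fold change of day 10 over day 5 tumors was 5.96 for Cpr64Aa, 4.82 for daw, 2.67 for Scr, 2.35 for tup, 1.90 for Eip74EF and 0.47 for yki, which were above the control discs at 10 days and below them at 5 days. It was -1.30 for kdn, -1.03 for COX7A, -0.91 for Acon, -0.89 for blw, -0.72 for COX4, -0.71 for Cks30A, -0.60 for pit, -0.54 for Nnp-1 and -0.44 for ci, which were below the control discs at 10 days and above them at 5 days.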

How the results depend on the processing

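The number of genes that differed between day 10 tumors and day 5 control discs ran from 5174 (genes kept by a mean count over 100, 6883 tested) to 6523 (no filter, 14729 tested), and edgeR called 6471 and DESeq2 6508. Leaving out 1 replicate gave 6023 to 6143 genes, with 3030 to 3110 higher and 2969 to 3033 lower. Counts past 2-fold depended on the scale. Genes at least 2-fold higher numbered 1280 with a pseudocount of 0.1, 487 with 5, 1345 with edgeR and 1384 with DESeq2, and 765 to 796 without 1 replicate. Genes at least 2-fold lower numbered 657, 266, 686 and 677 in the same settings, 265 with a mean count above 100, and 413 to 457 without 1 replicate.

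With a replicate block 6251 genes were called, and no named gene changed its call. Samples that share a number correlated at 0.042 to 0.074 in their deviations from the group means, under the 0.1 set for pairing. Without 1 replicate of the day 10 tumors or the day 5 control discs (replicates of other groups were not left out), day 10 and day 5 tumors differed in 5425 to 5786 genes, day 5 tumors and control discs in 6581 to 6912, day 10 and day 8 tumors in 1768 to 2266, day 10 and day 14 tumors in 3185 to 3520, and day 10 tumors and day 4 control discs in 6000.0 to 6282 genes.

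Of 51 list medians, 24 moved by more than the spread between the tumors with edgeR, 21 with DESeq2, 19 with a pseudocount of 0.1, 14 with 5, 12 with scaling by library size alone, 10 with the mean count filter, 7 with only the 2 groups compared, and 4 or fewer under each other alternative. The median of the list of neuron and glia markers turned to -0.080 with the mean count filter, which leaves fewer of them, and that of chitin and apical matrix genes, 0.03, fell under 0 with scaling by library size alone or by the factors of DESeq2. The genes called as higher were 50.7% of all calls, and 45.8% with scaling by library size. Depth limits the fold changes of Ilp8, Cyp6a17, CG40485, CG42492, sens and Sgs3, which have few reads in 1 group.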

Other observations

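All 13 listed mitochondrially encoded genes stood at 0 in each of the 8 libraries, so this class could not be compared and the oxidative phosphorylation genes described are those of the nucleus.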
